A study of Mus musculus with 48 samples.

Results

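The genes described here copy DNA or switch on the genes that do, apart from the Mcm helicase genes. The list holds 45 genes, from origin licensing and firing through the polymerases, the sliding clamp and the fork to the E2F transcription factors and cyclin E. A gene was taken from the probe sets that carry its symbol and no other, and of several the brightest on average over the 48 arrays was taken. This gave a probe set for 44 genes, of 17097 genes in the probe table, and Chaf1a, a subunit of the chromatin assembly factor CAF-1, was not analysed here. Dscc1, which helps to load the clamp, lay below the limit for dim genes (a mean log2 value of 3.73 against a limit of 3.96), so 43 genes were tested, of 12823 in all.

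Epidermal stem cells (EpSCs), the dividing keratinocytes that renew the outer layer of the skin, came from the epidermis of wild-type female C57B6/J mice. The young group was 8 weeks of age and the aged group 102 to 116 weeks. Zeitgeber times (hours after lights on) of ZT0, ZT4, ZT8, ZT12, ZT16 and ZT20 were covered at both ages, with 4 mice at each and 1 array per mouse (24 arrays per age, 48 in all). The sources used here do not give the isolation of the cells, the light schedule or the dates of harvest. Values are log2 probe set summaries of 1-colour Affymetrix arrays. Probe sets differ in brightness, so each gene is compared only with itself.

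The arrays were alike as a whole, with medians between 4.78 and 5.04 and a median correlation between arrays of 0.985. Basal keratinocyte genes such as Krt5, Krt14 and Trp63 lay between the 94.9th and the 100th percentile of all genes. Of the genes of other cell types, 4 of 7 for fibroblasts, 4 of 7 for endothelium, 4 of 9 for immune cells and 4 of 6 for melanocytes were dim, among them Pdgfra, Cdh5, Ptprc and Dct. Fewer were dim among those of suprabasal keratinocytes (1 of 10), the follicle bulge (2 of 7, Cd34 and Lgr5), skeletal muscle (1 of 6) and red blood cells (0 of 2). In RNA from whole cell samples, fewer cells of a type and less RNA per cell cannot be told apart, and the number of mice limits the precision.

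Before a cell copies its DNA, the origin recognition complex with Cdc6 and Cdt1 loads the Mcm helicase onto origins, and geminin blocks a second loading. The kinase Cdc7 with Dbf4, and then Cdc45 and the GINS complex, turn the helicase on, after which primase and the DNA polymerases copy the strands behind it, held to DNA by the clamp Pcna. Many of these genes are switched on together when cyclin E and its kinase release E2F factors from the retinoblastoma protein. In the epidermis, divisions of basal cells are known to follow the time of day.

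Members that share a course over the day could share letters in their promoters, so the E2F words TTTGGCGC, TTTGCCGC, TTTCGCGC and TTTCCCGC were searched on both strands of RefSeq promoter windows (GRCm38.p6, 250 bases before to 50 after each start). Of the 45 genes, 36 had a window. A word stood in 13 of their 43 windows (30.2%), in 5 of 8 windows of Mcm genes (62.5%), in 1 of 27 windows of mitosis genes (3.7%), and in 744 of all 32851 windows (2.26%). The word of each of the 13 genes is shown with the bases around it, 30 in all, to show what the search found. Capitals mark the words, each sequence is read in the direction of its first word, and the strand is given. These sites were chosen for display after the match was known.
Cdc6 (chr11:98908002-98908031, - strand): accccaggcgaTTTCCCGCtctccaccggc
Cdt1 (chr8:122568035-122568064, + strand): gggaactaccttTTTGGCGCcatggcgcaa
E2f2 (chr4:136172294-136172323, + strand): cgaatttggcggcatatagTTTGGCGCtaa
E2f3 (chr13:29986056-29986085, + strand): cgaaactcagaTTTCCCGCcggcttttcaa
E2f7 (chr10:110745230-110745259, - strand): acgcgggagcgTTTCCCGCggggacgcggg
Gins3 (chr8:95633507-95633536, - strand): ttcaaactcgcTTTCCCGCgccgcactcgc
Lig1 (chr7:13278841-13278870, - strand): cgccacacagaTTTCGCGCgcactttggcg
Orc1 (chr4:108579416-108579445, - strand): aggagaaaactTTTCGCGCcactaaccgaa
Pola1 (chrX:93632275-93632304, + strand): gcgggagtgcaTTTGGCGCcctgtgatgac
Pold1 (chr7:44548766-44548795, + strand): gctTTTCCCGCcacaagatacgccgccgtg
Pold3 (chr7:100121467-100121496, - strand): gagcgaagctgTTTCCCGCcggcgggagct
Pole2 (chr12:69228162-69228191, + strand): catgttcgcgaTTTGGCGCcaccgccgacg
Rfc3 (chr5:151651200-151651229, - strand): acgtcgcacgcTTTCGCGCtcGCGGGAAAa

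The first word was TTTCCCGC at 6 of these sites, TTTGGCGC at 4, TTTCGCGC at 3 and TTTGCCGC at 0. The site of Rfc3 held a further TTTCCCGC on the opposite strand, which reads GCGGGAAA in the line above. The site lay before the start in 7 genes, as in Rfc3 (10 bases before), Orc1 (27 before) and Cdc6 (138 before), and after it in 6, as in Pole2 (11 after) and Cdt1 (33 after). The windows of Ccne1, Cdc45, Chaf1b, E2f1, Pcna and Rfc4 held none of the 4 words. A word stood in the windows of 5 of the 15 genes with a window that passed the 24 h test in aged cells and of 8 of the 20 that did not. In young cells these counts were 2 of 7 and 11 of 28. For comparison, the CHR word TTTGAA stood in 20.9% of the members' windows, 70.4% of those of mitosis genes and 17.9% of all, and the E-box CACGTG, which the clock factors bind, in 16.3% of the members' and 7.15% of all. No member's E2F word overlapped a CHR word or an E-box. A word is a match of letters, not a measured binding site.

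Over the day, the replication genes were low around lights on and high around ZT12 at both ages. In young cells they stood high at ZT12, were back below their mean at ZT16 and stood above it again at ZT20. In aged cells they were already high at ZT8 and still high at ZT16. The score, the mean of the z values of the 43 genes on an array, was -0.52 ± 0.56 at ZT0, -0.50 ± 0.24 at ZT4, -0.38 ± 0.44 at ZT8, 0.78 ± 0.51 at ZT12, -0.35 ± 0.28 at ZT16 and 0.23 ± 0.15 at ZT20 in young cells (SD, n = 4 each). In aged cells it was -0.86 ± 0.43, -0.61 ± 0.47, 0.44 ± 0.38, 0.79 ± 0.33, 0.60 ± 0.32 and 0.38 ± 0.49 at the same times. The arrays of the ages did not overlap at ZT8, where young arrays ran from -1.03 to -0.08 and aged arrays from -0.01 to 0.82. Nor did they overlap at ZT16, where young arrays ran from -0.72 to -0.05 and aged arrays from 0.33 to 1.01. At ZT0, ZT4, ZT12 and ZT20 they overlapped. A 24 h cosine fitted to the score had an amplitude, from mean to peak, of 0.42 ± 0.14 with a peak at ZT14.1 ± 1.29 h in young cells and of 0.83 ± 0.14 with a peak at ZT13.6 ± 0.65 h in aged cells (SE, n = 24 arrays each). The score is given with no test, since its genes were chosen with results of these arrays known.

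**Figure D1:**
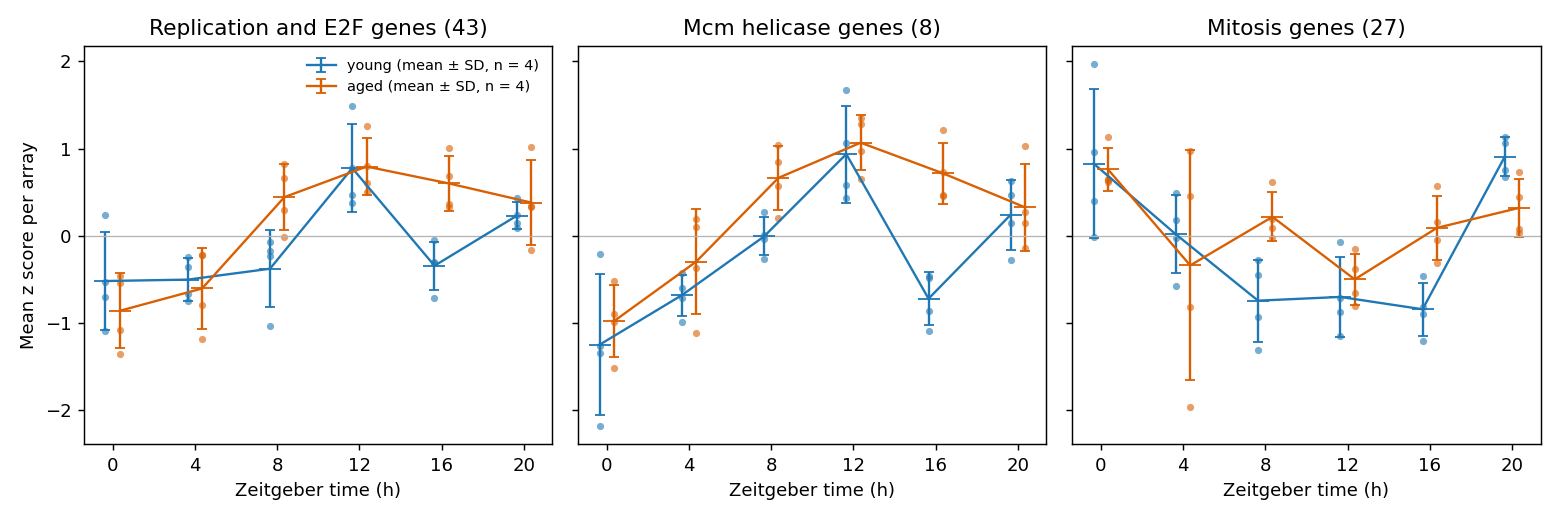
Mean z score per array (points) against zeitgeber time in hours, with mean ± SD of 4 arrays per age and time, for the 43 replication and E2F genes, the 8 Mcm genes and the 27 mitosis genes. The replication score of young cells falls from 0.78 at ZT12 to -0.35 at ZT16, while that of aged cells is 0.79 and 0.60.

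The hour of the highest mean was also read gene by gene. In young cells, 32 of the 43 genes (74.4%) had their highest mean at ZT12, against 16.3% of all genes tested. It lay at ZT20 in 6, among them Cdc7, E2f8 and Rrm2, a share (14%) near that of all genes (12%). In aged cells 19 genes (44.2%) were highest at ZT12, against 19.4% of all genes, 10 at ZT16 (23.3%, against 10.4%), 8 at ZT8 (18.6%, against 18.9%), 5 at ZT20 (11.6%, against 6.92%) and 1, Rfc4, at ZT4. The share at ZT8 was thus that of all genes. The lowest mean in aged cells fell at ZT0 in 31 genes (72.1%, against 17.6% of all genes), at ZT4 in 11 (25.6%, against 15.3%) and at ZT8 in 1. In young cells the low point was spread, at ZT4 in 15 genes (34.9%, against 16.8% of all genes), ZT0 in 13 (30.2%, against 13.3%), ZT16 in 8 (18.6%, against 23.8%), ZT8 in 5 and ZT20 in 2.

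**Figure D2:**
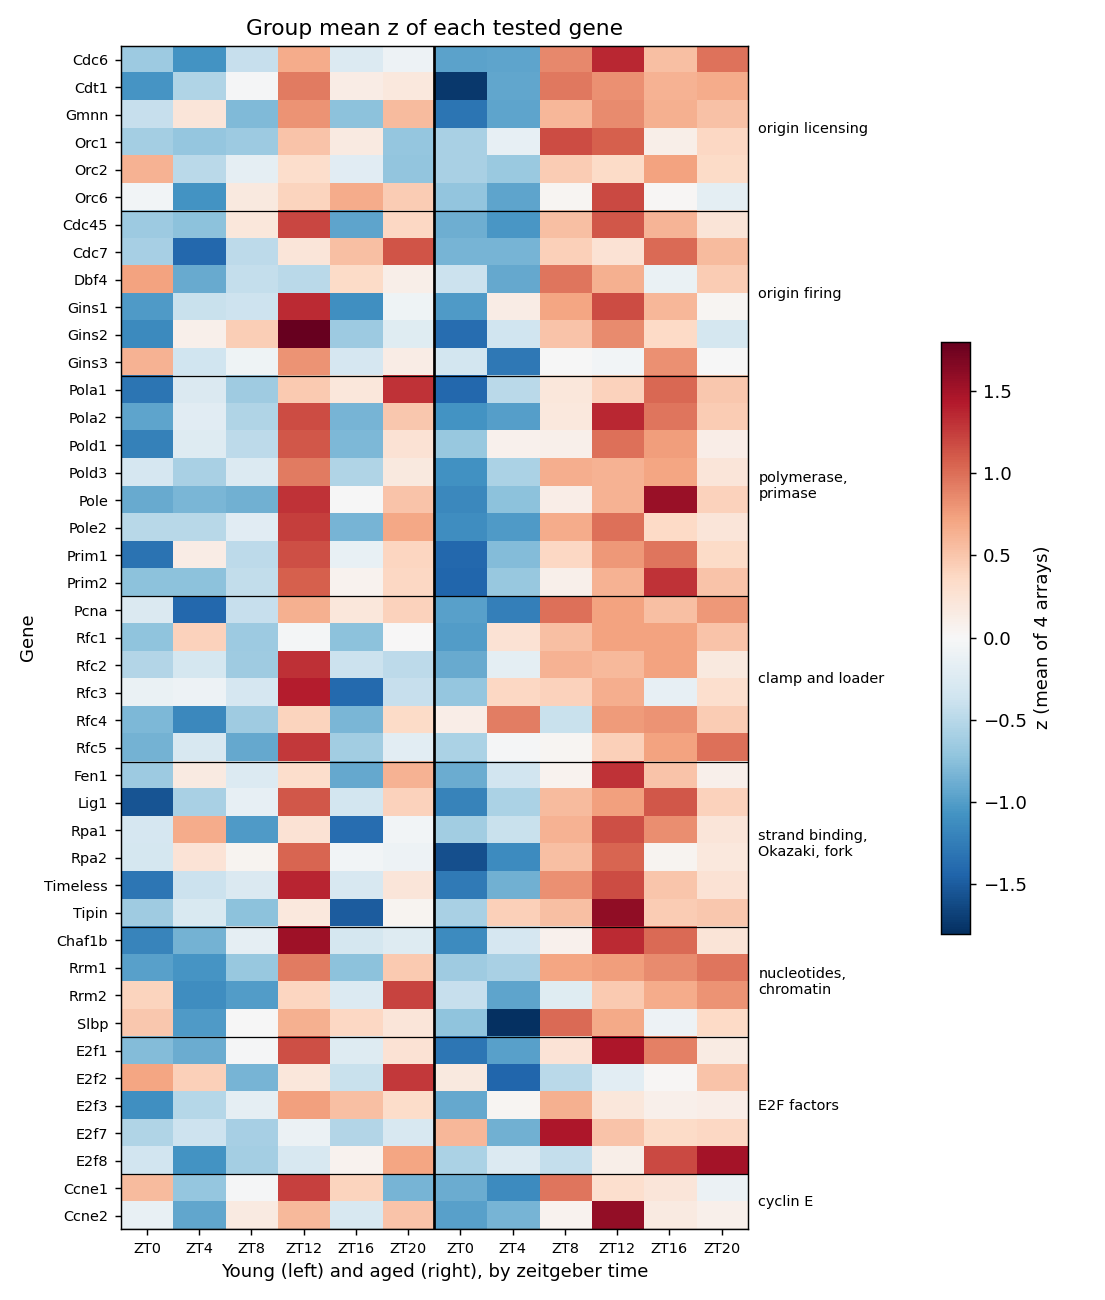
Mean z of each of the 43 genes (rows, grouped by role) at 6 zeitgeber times in young (left) and aged cells (right), where each cell of the plot is the mean of 4 arrays. The young ZT12 column stands alone, with 32 genes at their highest mean, and the aged panel shows high values from ZT8 to ZT20.

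A test for a 24 h rhythm (limma's F test of a cosine and a sine, adjusted by Benjamini-Hochberg over all 12823 genes, threshold 0.05) called 10 of the 43 genes in young cells (23.3%), against 6.27% of all genes. It called 20 in aged cells (46.5%), against 1.36% of all genes. Of these, 9 were called at both ages, 1 in young cells alone (Rrm2), 11 in aged cells alone and 22 in neither. Passing at 1 age and not at the other does not show a difference: the test of the difference in rhythm called 0 of the 43 genes (0% of all genes), with 4 at an unadjusted p under 0.05. The aged count was 13 without aged ZT0 replicate 1, ZT0 replicate 3, ZT4 replicate 1, ZT4 replicate 3 or ZT12 replicate 2, each left out alone. When the 6 times were compared with no assumption of a wave, 25 genes changed with time of day in young cells (17.5% of all genes) and 25 in aged cells (8.36%), and 19 of them did so at both ages. With scores of cell type lists as covariates, the 24 h test called 14 genes in young and 14 in aged cells. Over all genes it then called 1554 and 136, against 804 and 174. With these covariates 18 and 22 genes changed with time of day (2287 and 652 of all genes, against 2242 and 1072).

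The licensing genes come first in the sequence of replication. Of 6 tested, Cdt1, which loads the helicase, was rhythmic at both ages, and Cdc6, its partner, and Gmnn, which encodes geminin, in aged cells alone. Cdt1 peaked at ZT13.3 in young and ZT13.2 in aged cells, with log2 amplitudes of 0.30 ± 0.08 and 0.46 ± 0.08 (SE, n = 24; adjusted p = 0.0293 and 0.000776). In aged mice the arrays of Cdt1 read 8.57, 8.70, 8.81 and 8.90 at ZT4 and 9.36, 9.43, 9.44 and 9.61 at ZT8. Young mice read 8.70, 8.76, 8.88 and 9.23 and then 9.04, 9.04, 9.05 and 9.23, so that the young arrays of these times overlapped, the aged ones did not, and all 4 aged arrays of ZT8 stood above all 4 young ones. Cdc6 had amplitudes of 0.28 ± 0.09 (adjusted p = 0.131) and 0.49 ± 0.09 (adjusted p = 0.00439). The origin recognition genes Orc1, Orc2 and Orc6 had amplitudes between 0.02 and 0.20 and passed at neither age.

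Gmnn had the largest difference in amplitude between the ages. In young cells the highest mean of Gmnn was at ZT12 (7.07, 7.36, 7.47 and 7.83) and the next time was low (6.74, 6.79, 6.90 and 6.93 at ZT16), and its fitted 24 h amplitude was 0.05 ± 0.09. In aged cells the arrays at ZT0 read 6.24, 6.43, 6.83 and 6.97 and those at ZT12 7.34, 7.35, 7.41 and 7.69, with ZT8, ZT16 and ZT20 between 6.96 and 7.77, and the amplitude was 0.42 ± 0.09 (peak ZT13.6, adjusted p = 0.0274). Aged minus young, the amplitude of Gmnn was larger by 0.37, with a 95% interval of 0.11 to 0.64, but the test of the whole rhythm did not pass (adjusted p = 0.542). Gmnn lies on chromosome 13, from 24751845 to 24761937 (GRCm38.p6, as are all positions here).

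Among the genes that fire origins, the kinase gene Cdc7 and Gins2 of the GINS complex were rhythmic at both ages and Cdc45, whose protein joins GINS on the helicase, in aged cells alone. Gins2 had the earliest peak of the genes called at either age, with a peak at ZT10.5 ± 0.73 h in young and ZT11.9 ± 0.76 h in aged cells, and amplitudes of 0.50 ± 0.10 and 0.48 ± 0.10 (adjusted p = 0.00165 and 0.00883). Cdc7 came later, at ZT16.8 in young and ZT14.8 in aged cells, with amplitudes of 0.51 and 0.41 (adjusted p = 0.00183 and 0.0432). In young mice Cdc45 had a mean of 5.25 ± 0.23 at ZT12 (SD, n = 4) and read 4.44, 4.77, 4.83 and 4.85 at ZT16, and the arrays of these times did not overlap. Aged mice read 5.04, 5.27, 5.30 and 5.31 at ZT12, and 4.86, 5.05, 5.18 and 5.33 at ZT16, which overlap. Cdc45 had amplitudes of 0.14 ± 0.06 (adjusted p = 0.303) and 0.26 ± 0.06 (adjusted p = 0.0264). Gins1 changed with time of day at both ages (adjusted p = 0.00105 and 0.0118) without passing the 24 h test at either (0.181 and 0.0562). Gins3, another subunit of the complex, and Dbf4, the activator of Cdc7, passed neither test at either age.

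The polymerase and primase genes held the largest share of rhythmic members in aged cells, 6 of 8 against 2 of 8 in young cells. Pole, the catalytic subunit of the leading strand polymerase, and the primase subunit gene Prim2 passed at both ages, and Pola1, Pola2, Pole2 and Prim1 in aged cells alone. Pole was low at ZT0 to ZT8 and high at ZT12 in young cells, with 4.48, 4.76, 4.86 and 4.88 at ZT8 and 5.26, 5.34, 5.70 and 6.03 at ZT12. In aged cells Pole read 5.03, 5.03, 5.09 and 5.34 at ZT8, 5.18, 5.24, 5.35 and 5.50 at ZT12, and 5.49, 5.69, 5.74 and 5.79 at ZT16, its highest time. The fitted peaks of Pole were ZT15.0 ± 0.81 h and ZT14.6 ± 0.62 h, with amplitudes of 0.35 ± 0.07 and 0.46 ± 0.07 (adjusted p = 0.00605 and 0.000533). Pola2, the second subunit of polymerase alpha, had amplitudes of 0.12 ± 0.06 and 0.34 ± 0.06 (adjusted p = 0.397 and 0.00128), and the difference was 0.22 with a 95% interval of 0.05 to 0.39. The polymerase delta genes Pold1 and Pold3 passed the 24 h test at neither age.

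**Figure D3:**
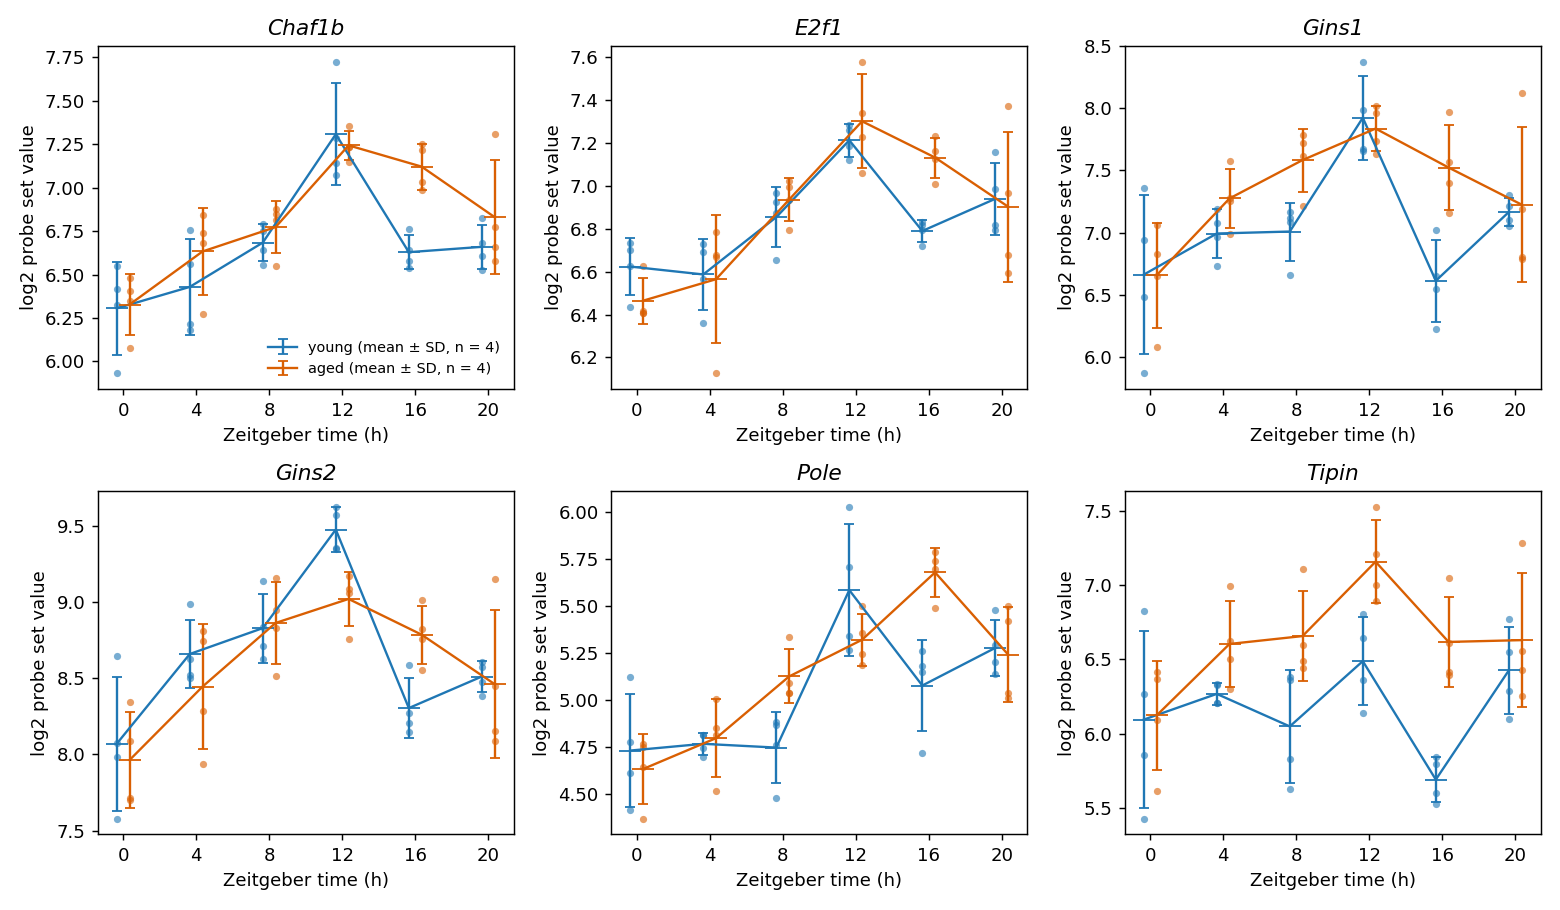
log2 probe set values against zeitgeber time in hours for Chaf1b, E2f1, Gins1, Gins2, Pole and Tipin, with points for arrays and mean ± SD of 4 arrays per age and time. At ZT16 all 4 aged arrays stand above all 4 young arrays for Chaf1b, E2f1, Gins1, Pole and Tipin, while those of Gins2 overlap.

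Of the 6 clamp and loader genes tested, 0 passed the 24 h test in young cells and 1, Pcna, in aged cells. Pcna, the sliding clamp, had amplitudes of 0.15 ± 0.04 in young (adjusted p = 0.0603) and 0.18 ± 0.04 in aged cells (adjusted p = 0.04). Its arrays in aged cells read 10.44, 10.50, 10.64 and 10.71 at ZT4 and 10.87, 10.92, 10.95 and 11.12 at ZT8, with no overlap. In young cells Pcna read 10.47, 10.56, 10.56 and 10.57 at ZT4 and 10.64, 10.72, 10.73 and 10.78 at ZT8, also with no overlap. Its young mean was highest at ZT12 (10.90 ± 0.07, SD, n = 4). At ZT8 all 4 aged arrays of Pcna thus stood above all 4 young ones. The loader genes Rfc1, Rfc2, Rfc3, Rfc4 and Rfc5 had amplitudes between 0.04 and 0.22 and passed the 24 h test at neither age. Rfc3 and Rfc5 changed with time of day in young cells (adjusted p = 0.0133 and 0.0403).

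At the fork, Lig1, the ligase that seals Okazaki fragments, and Timeless, which protects the fork, were rhythmic at both ages, and Rpa2, a subunit of the protein that coats single strands, in aged cells alone. Timeless had the largest amplitude of the 43 genes in aged cells, 0.63 ± 0.11, and 0.46 ± 0.11 in young cells, with a peak at ZT12.8 at both (adjusted p = 0.00134 and 0.0162). In aged mice Timeless read 5.09, 5.18, 5.21 and 5.23 at ZT0 and 6.07, 6.53, 6.61 and 6.79 at ZT12, a gap wider than either spread. In young mice it read 4.66, 4.92, 5.45 and 5.63, and 6.08, 6.44, 6.66 and 7.28. Lig1 had amplitudes of 0.37 ± 0.09 and 0.45 ± 0.09 (adjusted p = 0.0168 and 0.00677). Rpa2 had amplitudes of 0.15 ± 0.07 and 0.38 ± 0.07 (adjusted p = 0.431 and 0.00689). Fen1, the nuclease that trims Okazaki fragments, had amplitudes of 0.02 ± 0.09 and 0.31 ± 0.09 and passed at neither age.

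Of the genes for nucleotides, chromatin and histone mRNA, Chaf1b, a subunit of CAF-1, was rhythmic at both ages and Rrm2, the regulated subunit of ribonucleotide reductase, in young cells alone. Chaf1b had the smallest adjusted p of the 43 genes in young cells (0.000968), with a peak at ZT12.5 and an amplitude of 0.37 ± 0.07. In aged cells the peak was at ZT13.5 and the amplitude 0.41 ± 0.07 (adjusted p = 0.000972). Young mice read 5.93, 6.33, 6.41 and 6.55 for Chaf1b at ZT0 and 7.07, 7.14, 7.29 and 7.73 at ZT12. Aged mice read 6.08, 6.35, 6.40 and 6.48, and 7.15, 7.23, 7.24 and 7.36. At both ages every array of ZT12 stood above every array of ZT0. Rrm2 peaked at ZT19.0 in young cells, the latest of the genes called there, with an amplitude of 0.45 ± 0.11 (adjusted p = 0.0204), and had 0.42 ± 0.11 in aged cells (adjusted p = 0.0893). Slbp, which binds the end of histone mRNAs, changed with time of day in aged cells (adjusted p = 0.000136), where the mean was 8.14 ± 0.22 at ZT4 and 9.20 ± 0.20 at ZT8 (SD, n = 4).

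Of the E2F genes, the activator E2f1 was rhythmic at both ages and had the smallest adjusted p of all 43 genes in aged cells (2.92e-05). E2f1 peaked at ZT13.4 in young and ZT13.5 in aged cells, with amplitudes of 0.23 ± 0.06 and 0.41 ± 0.06. In aged mice E2f1 read 6.41, 6.41, 6.42 and 6.62 at ZT0 and 7.06, 7.23, 7.34 and 7.58 at ZT12, and in young mice 6.44, 6.63, 6.70 and 6.73, and 7.12, 7.18, 7.26 and 7.28. Neither age had an overlap between these times. The difference in amplitude was 0.18, with a 95% interval of 0.02 to 0.34. The repressor E2f8 peaked late, at ZT18.1 (amplitude 0.23, adjusted p = 0.0972) in young and ZT17.4 (0.31, adjusted p = 0.0293) in aged cells. E2f2 changed with time of day in young cells (adjusted p = 0.0347), with its highest mean at ZT20, and E2f3 and E2f7 passed neither test at either age.

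Cyclin E activates the kinase that frees E2F factors. Ccne1 changed with time of day at both ages (adjusted p = 0.024 and 0.0399) and read 5.81, 5.91, 6.00 and 6.04 at ZT12 and 5.14, 5.16, 5.49 and 5.56 at ZT20 in young mice, with no overlap. In aged mice its highest time was ZT8 (5.61, 5.72, 5.97 and 6.17) and its lowest ZT4 (4.96, 4.98, 5.48 and 5.57). Ccne2 was rhythmic in aged cells alone, with amplitudes of 0.16 ± 0.09 and 0.41 ± 0.09 (adjusted p = 0.539 and 0.032).

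The fitted 24 h amplitude was larger in aged than in young cells in 35 of the 43 genes (81.4%), against 40.2% of all genes, whose amplitudes had medians of 0.094 (young) and 0.078 (aged). The members' medians were 0.16 and 0.32. The 95% interval of the difference lay above 0 in 5 genes, E2f1, Pola2, Rpa2, Fen1 and Gmnn (0.398% of all genes), and below 0 in 0. These intervals were not adjusted for the number of genes, and the adjusted test of the difference in rhythm called none of the genes. An amplitude cannot fall below 0, and the young ones of Fen1 and Gmnn were smaller than their SE, so their intervals are rough. A fitted cosine is not the whole swing between the lowest and the highest mean. That swing was larger in young cells for Gins1 (2.48-fold in young, 2.27-fold in aged cells) and Timeless (2.73 and 2.51). The same held for Cdc7, Chaf1b, E2f2, E2f3, Gins2, Lig1, Pola1, Pold1, Prim1, Rfc2, Rfc3, Rfc4, Rfc5, Rpa1, Rrm1 and Rrm2. The swing was larger in aged cells for the other tested genes, as in Gmnn (1.53 and 1.78) and Fen1 (1.45 and 1.69). In some of these the gap was small, as in Cdc45 (1.44 and 1.45). For the 9 genes called at both ages, the peak in aged cells minus that in young cells had a median of 0.0017 h and lay between -2.03 h (Cdc7) and 1.38 h (Gins2), later in 5 of 9, with no test of the shift.

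**Figure D4:**
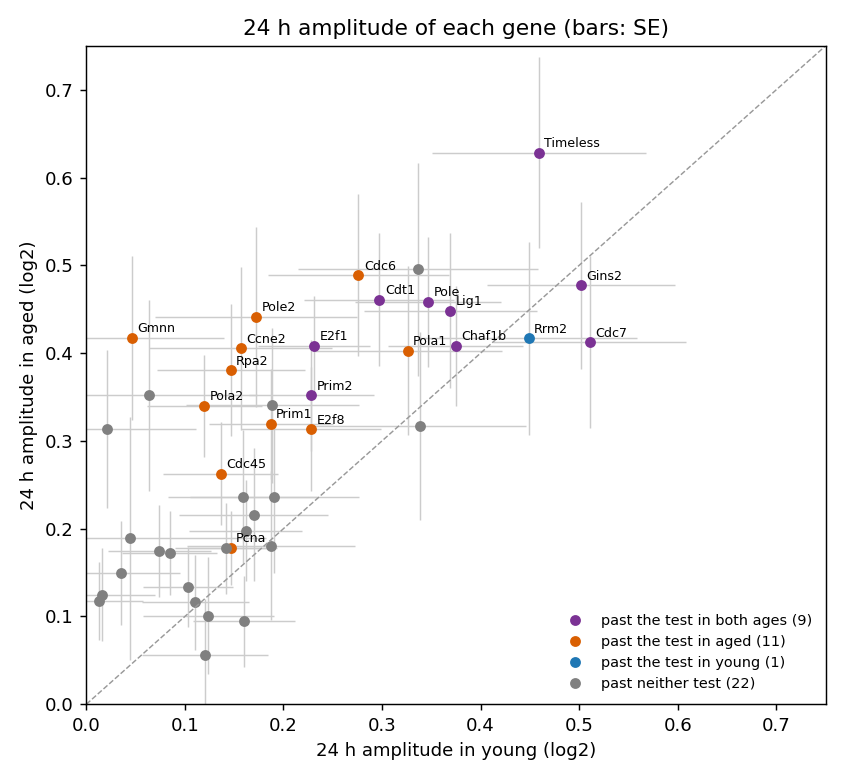
Fitted 24 h amplitude (log2) in aged against young cells for the 43 genes, with SE bars, coloured by the ages in which the gene passed the 24 h test, and with a dashed line of equal amplitude. Of the points, 35 lie above the line.

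The step from ZT12 to ZT16 followed the hour at which most members stood highest in young cells. It was chosen with a score of S phase genes known, and that choice favours a fall in young cells. From ZT12 to ZT16, 13 of the 43 genes fell in young cells (2.3% of all genes fell, and 3.4% changed in either direction) and 0 rose: Gins1, Gins2 and Cdc45 of origin firing, Pola2, Pold1, Pole and Pole2 of the polymerases, Rfc3 of the loader, Lig1, Timeless and Tipin of the fork, and Chaf1b and Rrm1. In aged cells 0 of the 43 passed (1.75% of all genes), with 4 at an unadjusted p under 0.05. The median change was -0.34 in young and -0.07 in aged cells, against -0.02 for all genes at each age.

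Of the 43 genes, Gins1 (chromosome 2, 150909556 to 150931280) fell most. In young mice Gins1 read 7.65, 7.67, 7.99 and 8.38 at ZT12 and 6.23, 6.55, 6.65 and 7.02 at ZT16, a change of -1.31 ± 0.24 (SE; 2.48-fold lower, adjusted p = 0.000708). In aged mice it read 7.63, 7.73, 7.96 and 8.02, and 7.16, 7.40, 7.57 and 7.97, which overlap, a change of -0.31 (adjusted p = 0.615). Gins2 gave the next largest step: 9.35, 9.36, 9.58 and 9.63 at ZT12 in young mice and 8.15, 8.21, 8.27 and 8.59 at ZT16, a change of -1.17 ± 0.20 (2.26-fold lower, adjusted p = 0.000186). In aged mice Gins2 read 8.76, 9.06, 9.09 and 9.17, and 8.55, 8.76, 8.82 and 9.02, and all 4 young arrays of ZT12 stood above all 4 aged ones. Timeless changed by -0.90 ± 0.22, Pole2 by -0.89 ± 0.20, Tipin by -0.80 ± 0.23, Chaf1b by -0.68 ± 0.14 and Rfc3 by -0.67 ± 0.14 in young cells. All 4 young arrays of ZT12 stood above all 4 of ZT16 in 16 genes, which were the 13 genes that fell and E2f1, Rfc5 and Gmnn (37.2%, against 6.28% of all genes). In aged cells this held for Orc1 and Pole2 (4.75% of all genes).

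Whether the step itself differed between the ages was tested as the difference of the 2 changes. It passed for 0 of the 43 genes (0.0078% of all genes), with 16 at an unadjusted p under 0.05, and its median was 0.31, with 38 of 43 above 0. The sizes were 1.00 ± 0.34 for Gins1, 0.94 ± 0.28 for Gins2 and 0.87 ± 0.21 for Pole (SE; adjusted p = 0.447, 0.301 and 0.271). The count of 13 was 6 without young ZT16 replicate 2, 7 without young ZT12 replicate 1 and 8 without young ZT16 replicate 4. The score of suprabasal keratinocyte genes moved the same way, from 0.35 ± 0.39 (arrays -0.01 to 0.87) at ZT12 to -0.34 ± 0.73 (-1.12 to 0.46) at ZT16 in young cells, though 1 of its 9 tested genes fell. So did the score of basal keratinocyte genes, from 0.31 ± 0.38 (-0.24 to 0.63) to -0.28 ± 0.37 (-0.77 to 0.11), with 0 of 8 genes called. The basal list was not used as a covariate. With scores of cell type lists as covariates the count was 4, all among the 13 (Chaf1b, Gins1, Gins2 and Rfc3), while that over all genes went from 436 to 208.

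The ages were next compared at each time, with tests added after the data had been seen. At ZT16, 7 genes were higher in aged cells (1.83% of all genes were higher, 3.3% differed in either direction) and 0 lower: Gins1, Pola2, Pole, Lig1, Rpa1, Tipin and Chaf1b. The median difference over the 43 genes was 0.34, with 37 above 0, against 0.01 for all genes. This comparison and the young step share the young arrays of ZT16. Tipin, the partner of Timeless at the fork, read 5.52, 5.60, 5.80 and 5.84 in young and 6.39, 6.42, 6.61 and 7.05 in aged mice, a difference of 0.93 ± 0.23 (1.90-fold higher, adjusted p = 0.0154). Gins1 was higher by 0.91 ± 0.24 (1.88-fold, adjusted p = 0.0251), Lig1 by 0.62 ± 0.18 (adjusted p = 0.044) and Pole by 0.60 ± 0.15 (adjusted p = 0.0139). Rpa1, the large subunit of the single strand binding protein, read 8.79, 8.93, 8.95 and 9.02 in young and 9.20, 9.26, 9.42 and 9.49 in aged mice, a difference of 0.42 ± 0.11 (adjusted p = 0.0174).

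At ZT16 the aged and young arrays did not overlap in 16 genes (37.2%, against 6.24% of all genes), all with aged above young. These were the 7 genes called and Cdc45, E2f1, Pole2, Pold1, Pold3, Rfc5, Rrm1, Rrm2 and Gmnn. The count of 7 was 2 without young ZT16 replicate 2 or without aged ZT16 replicate 4, 3 without young ZT16 replicate 4 or aged ZT16 replicate 3, and 4 without young ZT16 replicate 3. The score of suprabasal keratinocyte genes at ZT16 was -0.34 ± 0.73 (arrays -1.12 to 0.46) in young and 0.34 ± 0.68 (-0.49 to 1.09) in aged cells, with 1 of 9 genes higher, and that of immune cell genes -0.06 ± 0.67 (-0.92 to 0.68) and 0.59 ± 0.40 (0.25 to 1.12), with 0 of 5 tested genes called. With scores of cell type lists as covariates 2 genes were called, Pola2 and Pole, while the count over all genes went from 423 to 153.

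At ZT8, 41 of the 43 differences were above 0, with a median of 0.25 against 0.03 for all genes, but 1 gene passed, the repressor E2f7 (1.79% of all genes were higher, 2.14% differed), with 15 at an unadjusted p under 0.05. E2f7 read 4.66, 4.91, 5.11 and 5.28 in young and 5.74, 6.12, 6.20 and 6.29 in aged mice, a difference of 1.09 ± 0.31 (adjusted p = 0.0465), and the count was 0 when any 1 of 26 arrays was left out, all 8 of ZT8 among them. All 4 aged arrays stood above all 4 young ones in 13 genes at ZT8 (30.2%, against 7.72% of all genes), among them Cdt1, Gins1, Pcna, Rpa1, Timeless, Tipin and Gmnn. At ZT4, Rfc4 was higher in aged cells and E2f2 lower (8.21% of all genes differed). E2f2 read 6.72, 6.79, 6.83 and 7.13 in young and 5.11, 6.11, 6.26 and 6.66 in aged mice, a difference of -0.83 ± 0.24 (adjusted p = 0.0248). When a young ZT4 array (any of the 4) or aged ZT4 replicate 1 was left out, 1 of these 2 genes passed. The comparison called 0 genes at ZT0 (5.19% of all genes), ZT12 (1.31%) and ZT20 (1.36%), with 3, 2 and 2 at an unadjusted p under 0.05, and without aged ZT0 replicate 4 it called 2 at ZT0. At ZT12 the median difference was -0.02.

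**Figure D5:**
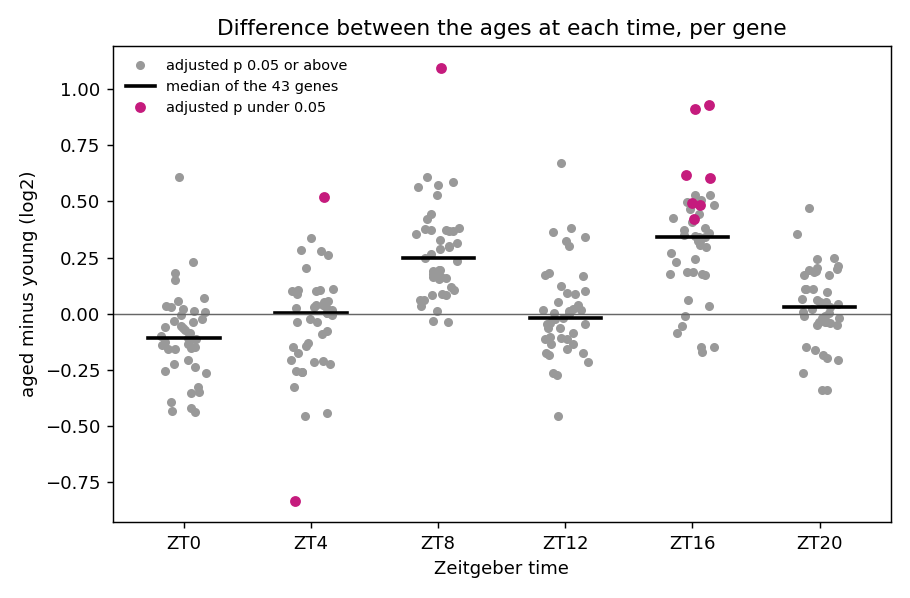
Difference aged minus young (log2) for each of the 43 genes (points) at 6 zeitgeber times, with the median of the 43 as a bar and genes with an adjusted p under 0.05 in colour. The medians are 0.25 at ZT8 and 0.34 at ZT16 and between -0.11 and 0.03 at the other times.

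The test of age by time over all 6 times called 0 of the 43 genes (2.59% of all genes), with 11 at an unadjusted p under 0.05. Pole and Rpa1 just missed the threshold (adjusted p = 0.0502 and 0.0506). Leaving out 1 array gave between 1 and 4 genes for 20 of the arrays, with 4 without aged ZT0 replicate 4 or aged ZT20 replicate 4 and 3 without aged ZT4 replicate 4 or young ZT0 replicate 2.

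Averaged over the day, 5 of the 43 genes (11.6%) were higher in aged cells and 0 were lower. The share that was higher was near that of all genes (9.89%), and 18.6% of all genes differed in either direction. Tipin (chromosome 9, 64281491 to 64305422) was higher by 0.46 ± 0.11 (1.38-fold, adjusted p = 0.00167), with a range of arrays of 5.43 to 6.83 in young and 5.61 to 7.53 in aged mice. The aged mean of Tipin was above the young one at each of the 6 times, and the arrays did not overlap at ZT8, ZT12 and ZT16. E2f7 was higher by 0.43 ± 0.14 (adjusted p = 0.0225), Cdc6 by 0.27 ± 0.09 (adjusted p = 0.0352), Rfc4 by 0.22 ± 0.06 (adjusted p = 0.0102) and Rrm1, the large subunit of ribonucleotide reductase, by 0.15 ± 0.05 (adjusted p = 0.0376). Rfc4 (chromosome 16, 23113948 to 23127730) showed its widest gap at ZT4, where young arrays read 6.90, 7.05, 7.24 and 7.62 and aged arrays 7.60, 7.66, 7.79 and 7.84, and it passed neither the 24 h test nor the test of time of day at either age. The count was 3 without aged ZT8 replicate 4, aged ZT20 replicate 4, young ZT16 replicate 2 or young ZT16 replicate 4. Of 5 immune cell genes tested, 3 were also higher in aged cells, and with scores of cell type lists as covariates 3 members were called, 2 of them among the 5 (2044 of all genes, against 2387).

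A second wave with a period of 12 h, fitted beside the 24 h wave, was called in 0 of the 43 genes in young cells (4.3% of all genes), with 8 at an unadjusted p under 0.05, the smallest for Ccne1 and Cdc45. In aged cells it was called in Cdt1, Pcna and Slbp (adjusted p = 0.0114, 0.0463 and 0.00223), whose means in aged cells were lower at ZT0 and ZT4 than at ZT8. This share of the 43 genes (6.98%) was near that of all genes (5.78%). With scores of cell type lists as covariates the aged count was 0 (492 of all genes, against 741). The difference between the ages passed for 0 genes (2.08% of all genes), with 8 at an unadjusted p under 0.05. In young cells 2 passed without young ZT0 replicate 2, and 1 passed without young ZT4 replicate 1, aged ZT12 replicate 1 or aged ZT20 replicate 1, and 1 difference passed without aged ZT20 replicate 1.

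Other cell cycle genes were read on the same arrays. The Mcm helicase genes, which the licensing genes load, took a like course, with a score of 0.94 ± 0.56 at ZT12 and -0.72 ± 0.31 at ZT16 in young cells and of 1.07 ± 0.32 and 0.72 ± 0.35 in aged cells. Of 8, 6 were rhythmic at each age and 5 fell from ZT12 to ZT16 in young cells. A wider list held 44 other tested genes of replication and the E2F pathway. The 24 h test called 4 of them in young cells (9.09%, against 6.27% of all genes) and 9 in aged cells (20.5%, against 1.36%). Their median 24 h amplitude was 0.125 at both ages. From ZT12 to ZT16 in young cells 9 fell (20.5%, against 2.3% of all genes) and 0 rose. At ZT16, 6 were higher and 1 lower in aged cells (15.9% differed, against 3.3% of all genes). The mitosis genes ran in another phase, with a score peak at ZT23.1 in young and ZT22.5 in aged cells. The 24 h test called 22 of 27 at the young and 1 at the old age, where 15 had an unadjusted p under 0.05. These counts do not show a difference between the ages. The test of the difference in rhythm called 0 of the 27, with 5 at an unadjusted p under 0.05. From ZT12 to ZT16 in young cells 0 mitosis genes passed, with 4 at an unadjusted p under 0.05. The gap between the ages was of a like size in the mitosis genes as in the replication genes: aged minus young had a median of 0.39 at ZT8, with 27 of 27 above 0, and of 0.34 at ZT16, with 26 of 27 above 0, and 1 gene passed at each time. The difference of the step had a median of 0.32 in the mitosis genes, with 23 of 27 above 0 and 0 called. Nothing here sets the replication genes apart in that gap, and the difference between the lists was not tested.

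Further probe sets above the dim limit were read for 26 of the genes, 29 in all. The amplitude lay within 0.1 of that of the probe set used in 23 of 29 in young cells, 20 in aged cells and 18 at both ages, and it was larger in aged than in young cells in 23. The second probe sets of Timeless (0.47 in young and 0.62 in aged cells), Gins2 (0.46 and 0.51) and Prim1 (0.19 and 0.35) had amplitudes near those of the first. The second probe set of E2f1 had 0.41 and 0.66, larger than the one used. That of Cdc7 had 0.14 and 0.05, smaller than the one used. For Rfc2, a second probe set had 0.05 in young cells, against 0.17, and for Rfc4 it had 0.22 in aged cells, against 0.06. The level of Rfc4 differed between the ages by 0.11 on that probe set, against 0.22. For Slbp the second probe set had a level difference of -0.45, against -0.08, and a young peak at ZT20.6, against ZT16.1.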

How the data were processed

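The deposited table holds log2 values that the authors made with RMA, per the submitters' processing notes. RMA adjusts the background, aligns the arrays and summarises probes. Neither its version nor a joint normalisation of both ages is stated, and normalising the ages apart would affect their comparison. TRizol was used to extract RNA, per the labels, which was then amplified and labelled with biotin. Of 45141 probe sets, 28898 carry 1 symbol, 551 several and 15692 are not in the probe table. Per gene the brightest probe set was kept, and the lowest 25% of genes were left out as dim.

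Linear models (lmFit and eBayes of limma 3.58.1, R 4.3.3) held 24 h cosines per age, 24 h and 12 h cosines, or the 12 groups with contrasts. The Benjamini-Hochberg adjustment ran over all 12823 genes. Errors of amplitudes and differences are standard errors. Of 19 comparisons, the 6 of the ages at each time were added after the data had been seen. The step from ZT12 to ZT16 was chosen with a score of S phase genes known. The 12 h wave was added because their young course was known not to be a single wave. The members and lists were chosen with earlier results of these data known. Genes described in full follow a rule (Pcna, E2f1 and the 2 smallest p of each of 7 comparisons), and other members are named by role or call. No arrays were identical. Mice were taken as independent. Residuals of arrays with the same replicate number had a mean correlation of -0.00074 (0.00091 otherwise). The labels do not pair mice by that number, so this value cannot show independence. Nothing says whether mice of a group shared a cage or a day. In the fit of the 12 groups, p-values measure the spread between these mice. In the fits of waves, which also gave the level, that spread includes departures of the group means from the wave. Gene positions and promoters are from RefSeq (GRCm38.p6).

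Alternatives changed the dim limit, used the mean of all probe sets, centred arrays on their median, applied cyclic loess, weighted the arrays, set trend and robust in eBayes, took the replicate number as a block, or fitted each age alone. Further ones added cell mixture covariates (scores of the suprabasal, fibroblast, endothelium, immune and melanocyte lists), left out the 4 arrays of lowest weight, or left out each array.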

Additional observations from a re-analysis of the deposited data

Results flagged for a closer look

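In the score and the genes described in full, 156 groups of 4 arrays were checked for an array far from the other 3, by a limit that chance passes in about 5% of groups. In 6 groups 1 array passed. The score of young ZT8 replicate 3 was -1.03, with the other arrays between -0.233 and -0.0772, and the same array read 6.66 for Gins1, with the others between 7.08 and 7.17. Pcna read 10.5 in young ZT4 replicate 2, with the others at 10.6. E2f1 read 6.62 in aged ZT0 replicate 4, above the others (6.41 to 6.42). Rfc4 read 7.45 in young ZT8 replicate 4, above the others (7.28 to 7.31). Cdc45 read 5.04 in aged ZT12 replicate 1, the array of lowest weight, with the others between 5.27 and 5.31.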

How the results depend on the processing

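Of the values of single genes, 46498 kept their side of the threshold, 300 newly passed, 503 no longer passed and 0 reversed. The number of genes called moved as follows, and the cause was not tested.

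With no filter on dim genes the ages differed at ZT8 in 0 genes. With the lower 50% of genes left out, 3 differed in level, 1 in age by time and 0 at ZT8. The mean of all probe sets gave 3 in level, 1 in age by time and 1 at ZT4. Median centring gave 3 in level and 0 at ZT8, and cyclic loess 3 in age by time and 0 at ZT8. Array weights gave 16 genes with a 24 h rhythm in young cells, 5 with a 12 h wave at each age and 2 for its difference, 11 in age by time, 1 for the aged step and 7 for its difference, and 4 at ZT4, 6 at ZT8 and 20 at ZT16. They raised the counts over all genes too, from 804 to 2327 for the young rhythm, 332 to 1573 for age by time and 423 to 1569 at ZT16. eBayes with trend and robust gave 1 in age by time and 0 at ZT8. The replicate block gave 1 gene with a 12 h wave in young cells and 1 in age by time, and moved no other count by over 1.5 times; the labels do not pair the mice. Cell mixture covariates gave 14 genes with a 24 h rhythm in young and 14 in aged cells. They gave 3 in level, 0 with a 12 h wave in aged cells, 2 in age by time, 4 for the young step, 1 at ZT4 and 2 at ZT16. Without the 4 arrays of lowest weight there were 2 with a 12 h wave in young cells, 2 in age by time, 1 for the difference in the step and 2 at ZT8.

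With each array left out in turn, the 24 h rhythm was called in 7 to 13 genes in young and 13 to 24 in aged cells, and level in 3 to 7. The 12 h wave was called in 0 to 2, 2 to 4 and, for its difference, 0 to 1. Age by time was called in 0 to 4, the young step in 6 to 15, and the ages at ZT0 in 0 to 2, ZT4 in 1 to 2, ZT8 in 0 to 1 and ZT16 in 2 to 8.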
